A study of Mus musculus with 8 samples.

Results

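The creatine kinase and phosphate energy shuttle was followed through 8 genes chosen by their symbols: *Ckm*, *Ckb*, *Ckmt2*, *Slc6a8*, *Ak1*, *Vdac1*, *Vdac2*, and *Vdac3*. All 8 were found among the 16994 genes with a row in the table. RNA came from male wild-type (WT) mice and from males that lack *Tigar* in the whole body (TKO). *Tigar* encodes a regulator of glycolysis. For the infarct, border, and remote zones, the left anterior descending coronary artery was permanently tied at 16 weeks of age, and hearts were studied 4 weeks later. The study calls its left ventricular reference tissue normal in the legend of an immunoblot, and the labels of these libraries say only left ventricle heart tissue. Neither the age of that tissue nor a sham operation is given in the sources used here. Each genotype and region is 1 library, and the infarct zone libraries are pools of 3 mice per genotype. The number of mice behind the other libraries is not given in the sources used here. No ratio between a pair of libraries therefore has a replicate check. Each such ratio is given with a 95% interval in brackets that covers counting error only, not the spread between mice. Reads that carry no molecular identifier may be copies of 1 molecule, so even the counting error may be larger than the interval.

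In muscle, ATP made in mitochondria has to reach the myofilaments and ion pumps that use it. Mitochondrial creatine kinase, placed between the mitochondrial membranes, passes the phosphate of ATP to creatine, and phosphocreatine carries it into the cytosol, where cytosolic creatine kinase hands it back to ADP. Voltage-dependent anion channels (VDACs) are the pores of the outer mitochondrial membrane through which these metabolites pass, a creatine transporter fills the cell with creatine, and adenylate kinase turns ADP into ATP and AMP. The adult heart relies mainly on the muscle form of the cytosolic enzyme, and the brain form is the one used by brain, smooth muscle, and many other cells.

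The genes lie apart in the mouse genome (GRCm38 build). *Ckm*, the muscle cytosolic creatine kinase (ENSMUSG00000030399, chr7:19404776-19422841), *Ckb*, the brain cytosolic form (ENSMUSG00000001270, chr12:111669361-111672338), and *Ckmt2*, the sarcomeric mitochondrial form (ENSMUSG00000021622, chr13:91853387-91876885), are on separate chromosomes. The creatine transporter *Slc6a8* (ENSMUSG00000019558, chrX:73673150-73682502) is on chromosome X. *Ak1* (ENSMUSG00000026817, chr2:32621758-32635058) encodes the main cytosolic adenylate kinase of muscle. The channels are *Vdac1* (ENSMUSG00000020402, chr11:52360860-52389397), *Vdac2* (ENSMUSG00000021771, chr14:21825238-21845879), and *Vdac3* (ENSMUSG00000008892, chr8:22577075-22593813). *Ckm* and *Ckmt2* overlap annotated antisense genes, and *Vdac2* overlaps *Comtd1* on the opposite strand. These are overlaps of whole gene spans, and whether the exons overlap was not checked. Whether the libraries kept strand is not stated, so reads from any shared exon stretch might not be told apart from reads of the member. *Ckb* has 2 and *Vdac3* has 1 pseudogene of the same name, which could share reads with them.

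The levels of *Ckm* and *Ckmt2* moved together and that of *Ckb* apart from them, so the 250 bases before the RefSeq start site (GRCm38.p6) of these 3 genes are shown. RefSeq start sites were at hand for 5 of the 8 genes. The capitals mark E-boxes (CANNTG, which reads the same on both strands), the short motif bound by the myogenic and other basic helix-loop-helix factors.
Ckm, chr7:19410844-19411093, plus strand: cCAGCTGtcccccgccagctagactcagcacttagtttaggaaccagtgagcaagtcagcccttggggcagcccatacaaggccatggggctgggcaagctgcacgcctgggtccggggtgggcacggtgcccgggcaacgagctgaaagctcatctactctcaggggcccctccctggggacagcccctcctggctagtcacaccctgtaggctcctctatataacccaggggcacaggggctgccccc
Ckmt2, chr13:91876886-91877135, minus strand: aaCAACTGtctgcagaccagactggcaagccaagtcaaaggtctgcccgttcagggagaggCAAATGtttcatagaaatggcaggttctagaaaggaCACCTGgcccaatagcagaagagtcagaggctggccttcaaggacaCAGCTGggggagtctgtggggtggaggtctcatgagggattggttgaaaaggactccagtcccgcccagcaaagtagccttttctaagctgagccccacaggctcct
Ckb, chr12:111672339-111672588, minus strand: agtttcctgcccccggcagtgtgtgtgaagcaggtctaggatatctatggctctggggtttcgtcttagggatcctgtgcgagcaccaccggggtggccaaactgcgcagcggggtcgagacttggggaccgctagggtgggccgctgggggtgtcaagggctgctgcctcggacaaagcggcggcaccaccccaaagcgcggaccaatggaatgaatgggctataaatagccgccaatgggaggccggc
The *Ckmt2* window held 4 E-boxes, the *Ckm* window 1, and the *Ckb* window 0, and 66.2% of all 32536 mouse promoter windows of this length held at least 1. A MEF2 site core (CTA and TAG with 4 bases of any kind between them, the same on both strands) was found once, in *Ckb*, in 3.22% of all windows. A TATA box in the form TATAAA, on either strand, was also found in *Ckb*, overlapping that core, and in 12.3% of all windows. Only this exact form was searched for, and it misses the similar letters tatataa in the *Ckm* window. No estrogen-related receptor half-site (AAGGTCA, either strand, in 4.09% of all windows) was found in these 3. GC content was 64.8% for *Ckm*, 54.0% for *Ckmt2*, and 62.8% for *Ckb*, and the windows held 6, 2, and 16 CG pairs. The median over all windows was 52.4% GC and 6 CG pairs. These matches describe letters in a window and no binding was measured.

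Total counts per library lay between 27429240 and 33799249. *Tigar* had 1965, 1066, 2215, and 1997 counts in the WT left ventricle, infarct, border, and remote zones and 51, 87, 79, and 87 in the TKO libraries, so the genotype labels held. Levels below are CPM, counts divided by library size, after TMM scaling (TMM CPM), which sets the bulk of genes equal between libraries. Its factors were 1.54 and 1.26 in the WT and TKO infarct zones and between 0.866 and 0.956 in the other 6 libraries. The 12 listed cardiomyocyte markers were all detected in every library. Their summed level was 13980.3 TMM CPM in the WT and 26840.2 in the TKO infarct zone, against 44149.7 to 57003 in the other 6. The 8 fibroblast markers summed to 8302 in the WT and 6865 in the TKO infarct zone, against 933 to 2998 elsewhere. The 8 macrophage and leukocyte markers summed to 1295 and 967 in those zones and to 242 to 473 elsewhere. The 7 skeletal muscle markers summed to 152 in the infarct zone of WT hearts and to 29.8 in their border zone. In the other 6 libraries that sum was 1.27 to 2.85, with 3 to 7 of the markers detected. *Myh4*, a fast skeletal myosin, had 1486 and 193 counts in the WT infarct and border zones and at most 6 in the others. *Ckm* and *Ak1* are also highly expressed in skeletal muscle, and the part of these fibers in the values of the WT infarct and border zones was not tested.

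In WT left ventricle the mitochondrial enzyme was the most abundant member per length. Per kilobase of annotated transcript, *Ckmt2* stood at 1209 TMM CPM, followed by *Vdac1* at 468, *Ckm* at 450.0, and *Ak1* at 228. *Vdac2* and *Vdac3* were close to each other at 211 and 208, *Slc6a8* was at 61.0, and *Ckb* was lowest at 27.3. The annotated *Ckm* transcript of 2742 bases starts upstream of the RefSeq start site and may be longer than the RNA in these cells. Per kilobase of coding sequence the order of the 8 genes was the same, with *Ckm* at 1079.5, *Vdac1* at 1115, and *Ckmt2* at 1429.6. Differences between genes on this scale depend on the lengths assumed, whereas changes of 1 gene between libraries do not.

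Both creatine kinases of the sarcomere-bound shuttle were lowest in the infarct zone, and lower there in WT than in TKO hearts. The TMM CPM of *Ckm* in WT libraries was 1234 in left ventricle, 251 in infarct, 902 in border, and 1035 in remote tissue. The TKO libraries, in the same order, had 1589, 529.6, 1169, and 1164. In all 4 regions the TKO library was above the WT library, and the TKO left ventricle was the highest of the 8. The infarct zone of WT hearts held 0.203 (0.199 to 0.208) of the WT left ventricular level, and that of TKO hearts held 0.333 (0.328 to 0.339) of the TKO level. In bulk tissue, fewer cardiomyocytes and less RNA per cardiomyocyte cannot be told apart.

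*Ckmt2* followed the same order at its ends. Its TMM CPM in WT libraries was 1797 in left ventricle, 362 in infarct, 1373 in border, and 1715 in remote tissue, and TKO libraries had 2056, 848, 1775, and 1857 in the same order. The WT infarct zone was again the lowest and the TKO left ventricle the highest library. Relative to its own left ventricle, the infarct zone stood at 0.202 (0.198 to 0.205) in WT and 0.412 (0.407 to 0.418) in TKO. Its border zone was at 0.764 (0.754 to 0.774) in WT and 0.863 (0.853 to 0.874) in TKO.

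*Ckb* followed a different order. In TMM CPM, WT libraries had 40.2 in left ventricle, 76.2 in infarct, 51.6 in border, and 54.0 in remote tissue, and TKO libraries had 67.6, 70.5, 45.4, and 45.0. The WT left ventricle was the lowest of the 8 libraries and the WT infarct zone the highest, the reverse of where *Ckm* had its lowest level. Neighboring libraries in this order did not differ beyond counting error for the TKO infarct zone and TKO left ventricle, for the WT remote and border zones, and for the TKO border and remote zones. The WT infarct zone was 1.90 (1.77 to 2.03) times the WT left ventricle, whereas the TKO infarct zone was 1.04 (0.981 to 1.11) times the TKO left ventricle, a ratio whose interval holds 1. That TKO ratio depends on the TMM scaling. Before it, *Ckb* had 2520 counts of 28419083 in the TKO infarct zone and 1750 of 29894294 in the TKO left ventricle. The border and remote zones lay on opposite sides of their left ventricle in the genotypes. They were 1.28 (1.19 to 1.39) and 1.34 (1.24 to 1.45) of it in WT, and 0.672 (0.625 to 0.722) and 0.667 (0.620 to 0.716) of it in TKO. The zone ratios of a genotype share 1 left ventricle library, which stood low for WT and high for TKO.

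*Slc6a8*, which brings creatine into the cell, varied least of the 8 members over the 6 libraries outside the infarct zone. Its level in TMM CPM was 202 in left ventricle, 108 in infarct, 213 in border, and 204 in remote tissue of WT hearts, and 198, 148, 199, and 192 in TKO hearts. Those 6 libraries lay between 192 and 213, and 4 of the 5 neighboring pairs among them did not differ beyond counting error. The infarct zone held 0.535 (0.515 to 0.557) of the left ventricular level in WT and 0.744 (0.716 to 0.774) in TKO. With library totals in place of TMM scaling the TKO infarct zone was at 1.08, above its left ventricle. On the TMM scale the drop was smaller than those of *Ckm* and *Ckmt2* in both genotypes.

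*Ak1* had TMM CPM of 475 in left ventricle, 161 in infarct, 414 in border, and 494 in remote tissue of WT hearts and of 629, 272, 496, and 512 in TKO hearts. The infarct zone libraries were the lowest of the 8. The infarct zone was at 0.339 (0.329 to 0.349) of the left ventricle in WT and 0.432 (0.421 to 0.443) in TKO. The WT remote zone, at 1.04 (1.02 to 1.06), was the only region of WT hearts not below the left ventricle for this gene.

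The 3 channel genes were all lowest in the infarct zone. *Vdac1*, the most abundant channel, had TMM CPM of 947 in left ventricle, 286 in infarct, 737 in border, and 798 in remote tissue of WT hearts and 1054, 469, 856, and 859.7 in TKO hearts. *Vdac2* had 412 in left ventricle, 177 in infarct, 363 in border, and 382 in remote tissue of WT hearts and 485, 262, 393, and 389.7 in TKO hearts. *Vdac3* had 296 in left ventricle, 117 in infarct, 249.99 in border, and 291 in remote tissue of WT hearts and 342, 165, 293, and 296 in TKO hearts. For all 3, the WT infarct zone was the lowest library, the TKO infarct zone was next, and the TKO left ventricle was the highest. In WT hearts the infarct zone held 0.302 (0.295 to 0.308) of the left ventricular *Vdac1* level, 0.397 (0.383 to 0.411) of *Vdac3*, and 0.429 (0.416 to 0.442) of *Vdac2*. In TKO hearts the values were 0.445 (0.436 to 0.453), 0.482 (0.466 to 0.498), and 0.540 (0.526 to 0.555).

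**Figure D1:**
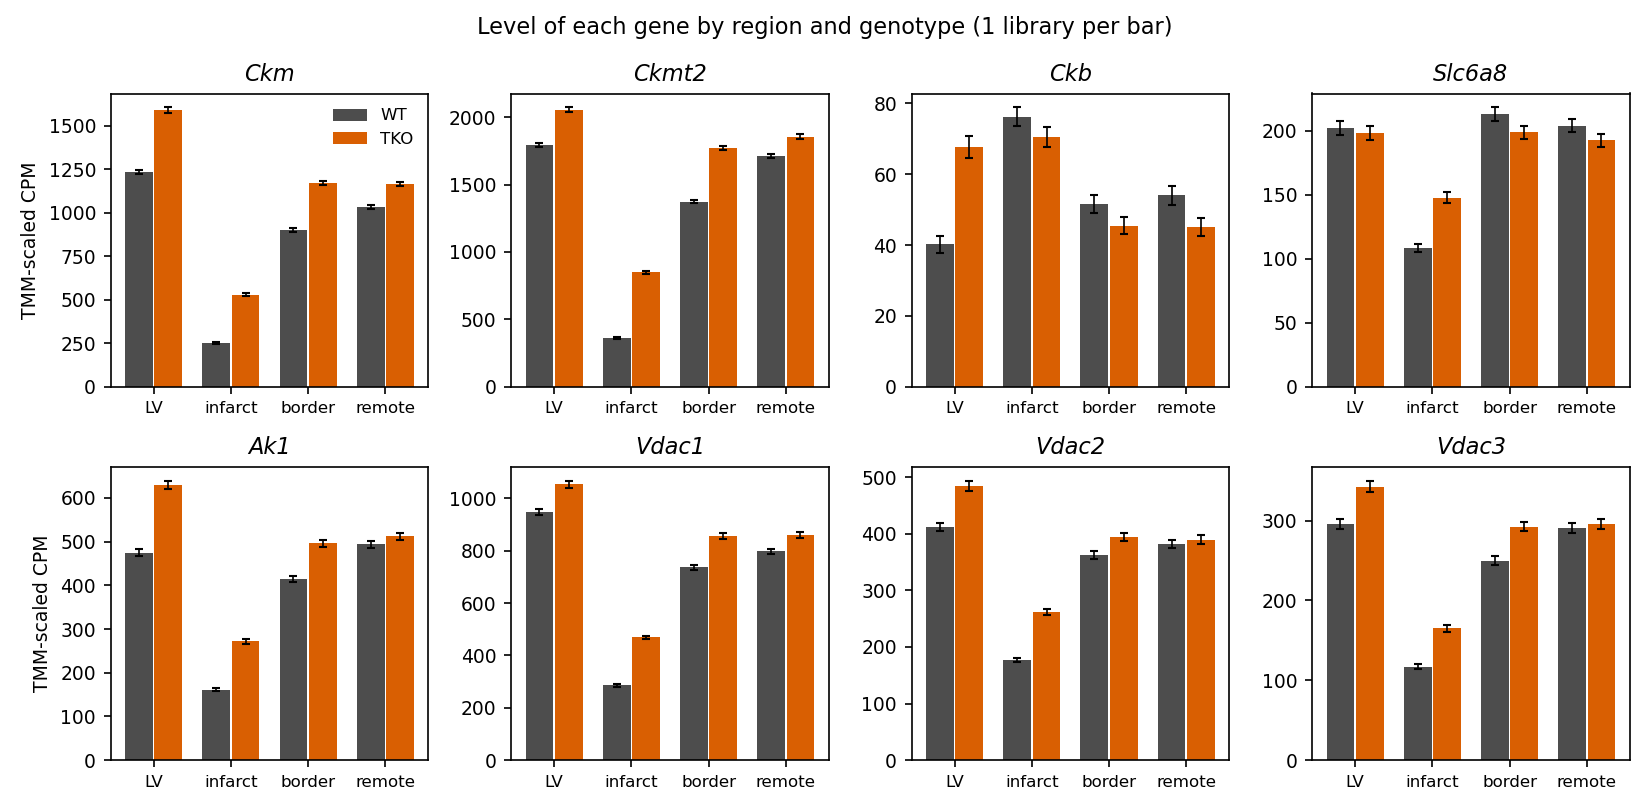
Level of each of the 8 genes in TMM CPM (vertical axes from 0, a scale of its own for each gene) in the left ventricle (LV) and the infarct, border, and remote zones, with WT in gray and TKO in orange. Each bar is 1 library and its error bar is the 95% Poisson interval of the count. *Ckm* in the WT infarct zone (251) is the lowest of its 8 bars, and *Ckb* there (76.2) is the highest of its own.

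Whether a zone differed from the left ventricle was tested with both genotypes together, with edgeR's quasi-likelihood test, genotype as a covariate, and Benjamini-Hochberg adjustment over 12999 genes. The test then treats the WT and TKO libraries of a zone as its replicates, and its p-values measure the spread between libraries, not between mice. In the infarct zone 7 of the 8 members were lower, where 28.6% of all genes were called lower and 28.2% higher. The log2 difference of *Ckm* was -1.91 ± 0.25 (SE, adjusted p = 0.00171) and that of *Ckmt2* -1.75 ± 0.31 (adjusted p = 0.00384). *Vdac1* (-1.44 ± 0.20), *Ak1* (-1.37 ± 0.20), *Vdac3* (-1.19 ± 0.15), and *Vdac2* (-1.05 ± 0.17) followed, with adjusted p between 0.00153 and 0.00300. *Slc6a8* had the smallest drop that was called (-0.65 ± 0.17, adjusted p = 0.0165). Without the WT left ventricle it was -0.60 with an adjusted p of 0.0574, and with library totals in place of TMM it was 0.02. *Ckb* was 0.45 ± 0.24 (adjusted p = 0.157) and not called. It was called higher without the TKO left ventricle (0.95, adjusted p = 0.00211) and with library totals (1.13, adjusted p = 0.00516). With library totals, 7869 genes were called higher and 1084 lower in place of 3670 and 3715, the median of all genes moved to 0.71 on the log2 scale, and 6 members were called lower. Leaving out 1 library leaves its region with 1, which is then assumed to vary like the others. Without the WT infarct zone, 7 members and 18.7% of 12697 genes were called lower.

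By size alone, 7 members were at least 1.5-fold lower in the WT infarct zone than in the WT left ventricle, as were 25.8% of all genes. *Ckb* alone was at least 1.5-fold higher, as were 28.5% of all genes. In TKO hearts 6 members were at least 1.5-fold lower, against 20.2% of all genes. The median infarct zone ratio over the members was 0.367 in WT and 0.463 in TKO, and over all genes it was 1.01 in both.

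In the border and remote zones no member passed the test. Over all genes, 0.715% were called between the border zone and the left ventricle and 0.0% between the remote zone and the left ventricle. The remote zone comparison had 1378 genes at an unadjusted p under 0.05 with edgeR and 162 calls with DESeq2, and none of those calls was a member. The largest difference of a member was that of *Ckm* in the border zone (-0.45 ± 0.25, adjusted p = 0.384). *Slc6a8* in the remote zone was at -0.02 ± 0.17 (adjusted p = 0.982).

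**Figure D2:**
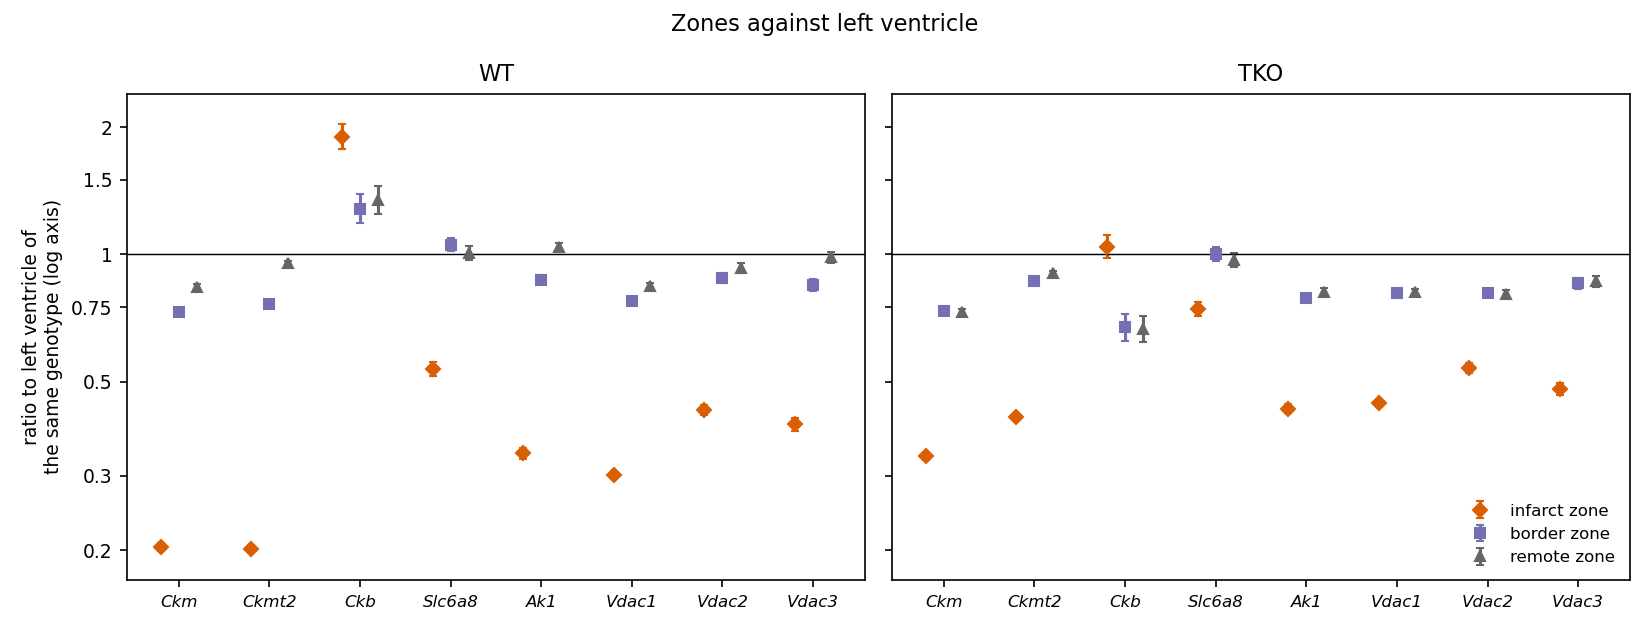
Ratio of the infarct (diamonds), border (squares), and remote zone (triangles) to the genotype-matched left ventricle for each gene, on a log axis, with WT on the left and TKO on the right. Bars are 95% counting intervals, and the line marks a ratio of 1. In WT hearts *Ckm* and *Ckmt2* sit lowest, at 0.203 and 0.202, and *Ckb* in the infarct zone is highest at 1.90.

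In the infarct zone 7 of the 8 members had more RNA in the TKO than in the WT library. *Ckmt2* had the highest TKO over WT ratio, 2.34 (2.29 to 2.39), followed by *Ckm* at 2.11 (2.06 to 2.16). *Ak1* stood at 1.69 (1.64 to 1.74) and *Vdac1* at 1.64 (1.60 to 1.68). The ratios of *Vdac2*, *Vdac3*, and *Slc6a8* were 1.48 (1.44 to 1.53), 1.41 (1.35 to 1.46), and 1.37 (1.31 to 1.42). *Ckb* was the exception at 0.926 (0.878 to 0.975). The ratio was at least 1.5 for 4 members, and for 10.1% of all genes. The median over the members was 1.56, and over all genes it was 1.005. With library totals in place of TMM the ratios became 1.91 for *Ckmt2*, 1.72 for *Ckm*, 1.38 for *Ak1*, 1.11 for *Slc6a8*, and 0.755 for *Ckb*, and no direction changed.

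In the border zone the order was similar and the ratios smaller. *Ckm* and *Ckmt2* had ratios of 1.30 (1.28 to 1.32) and 1.29 (1.28 to 1.31), *Ak1* of 1.20 (1.17 to 1.23), and the channels of 1.08 to 1.17. *Slc6a8*, at 0.933 (0.900 to 0.966), and *Ckb*, at 0.881 (0.818 to 0.947), were lower in TKO. No member reached a ratio of 1.5, which 3.61% of all genes did. In the remote zone, where 3.13% of all genes and no member reached it, *Ckm* was at 1.12 (1.11 to 1.14) and *Ckmt2* at 1.08 (1.07 to 1.10). *Vdac2* was at 1.02 (0.994 to 1.05) and *Vdac3* at 1.02 (0.988 to 1.05) there, and both intervals held 1. *Ckb* was at 0.834 (0.776 to 0.897) and *Slc6a8* at 0.945 (0.912 to 0.980).

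In the left ventricle 7 members again had a ratio above 1. *Ckb* had the highest, 1.68 (1.56 to 1.82), and was the only member to reach 1.5, as did 5.69% of all genes. *Ak1* was at 1.32 (1.29 to 1.35), *Ckm* at 1.29 (1.27 to 1.31), and *Ckmt2* at 1.14 (1.13 to 1.16). The channels lay between 1.11 and 1.18. *Slc6a8* was at 0.982 (0.945 to 1.02), with an interval that holds 1.

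**Figure D3:**
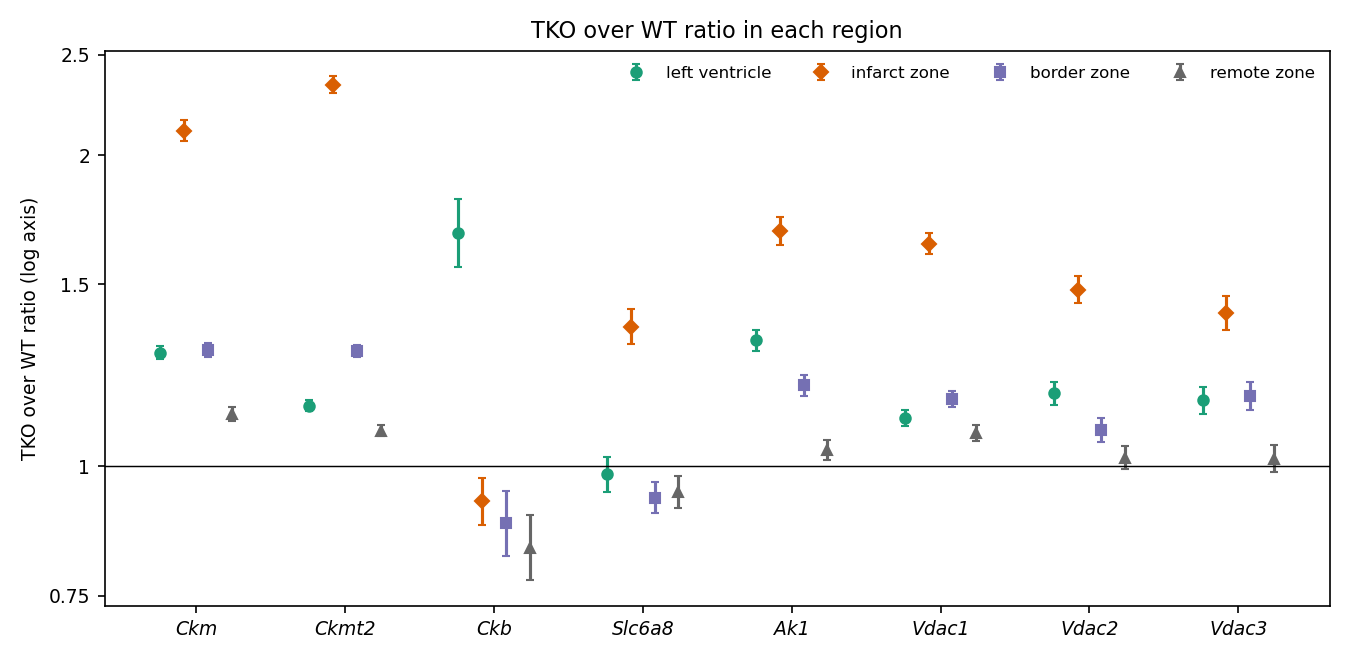
TKO over WT ratio of each gene in the left ventricle (circles), infarct zone (diamonds), border zone (squares), and remote zone (triangles), on a log axis, with 95% counting intervals and a line at 1. The infarct zone has the highest ratio for every gene but *Ckb*, whose left ventricle stands at 1.68 and whose other regions lie between 0.834 and 0.926.

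Across the 4 regions taken as blocks, no member passed edgeR's quasi-likelihood test of genotype, and 0.138% of all 12999 genes did. The regions stand in for replicates of a genotype here, so the p-values measure the spread between regions, not between mice. Of the members, 2 had an unadjusted p under 0.05, as did 16.2% of all genes, and none was called by DESeq2, which called 2.63% of all genes. *Ckm* had the largest difference, 0.49 ± 0.17 on the log2 scale (SE, 4 regions, adjusted p = 0.265), and was higher in TKO in 4 of 4 regions. *Ckmt2* was at 0.47 ± 0.21 (adjusted p = 0.333), *Ak1* at 0.37 ± 0.14 (adjusted p = 0.278), and *Vdac1* at 0.30 ± 0.14 (adjusted p = 0.343), each higher in 4 of 4 regions. So were *Vdac3* (0.24 ± 0.11, adjusted p = 0.326) and *Vdac2* (0.24 ± 0.12, adjusted p = 0.366), though their remote zone intervals held 1. The share of all genes with the same direction in 4 of 4 regions was not counted. *Ckb* (0.04 ± 0.17, adjusted p = 0.913) was higher in 1 region, and *Slc6a8* (0.06 ± 0.12, adjusted p = 0.824) was higher in 1.

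A separate test asked whether the genotype difference of the infarct zone departed from that of the other 3 regions. No member passed edgeR's test, which called 0.00769% of all genes, while DESeq2 called 1.18% of all genes and 2 members, *Ckmt2* and *Ckm*. With edgeR the departure of *Ckmt2* was 0.9997 ± 0.17 on the log2 scale (SE, adjusted p = 0.410), and with DESeq2 its adjusted p was 0.00220. *Ckm* departed by 0.78 ± 0.17 (adjusted p = 0.410 with edgeR and 0.0247 with DESeq2). The calls depended on the left ventricle libraries. Without them edgeR called 6.81% of 13125 genes and 5 members, namely *Ckm*, *Ckmt2*, *Slc6a8*, *Ak1*, and *Vdac1*, all with their larger ratio in the infarct zone. In every form of this test the infarct zone is represented by 1 TKO and 1 WT library.

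For *Ckb* the region that stood apart was the left ventricle, and its departure was tested after that had been seen. The difference was 0.93 ± 0.14 on the log2 scale (SE) with an adjusted p of 0.0618 in edgeR, which called 0.646% of all genes and no member. DESeq2 called 2.15% of all genes and *Ckb* among them (adjusted p = 0.0155). Without the infarct zone libraries, edgeR called 1305 of 12425 genes, *Ckb* among them (adjusted p = 0.000947).

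The cardiomyocyte markers moved with these differences. Their summed level in the infarct zone was 13980.3 TMM CPM in WT and 26840.2 in TKO. Divided by the TKO over WT ratio of that sum, the infarct zone ratio of *Ckmt2* was 1.22 and that of *Ckm* 1.10. The other 6 members were below 1 on this scale, from *Ak1* at 0.879 and *Vdac1* at 0.855 to *Slc6a8* at 0.711 and *Ckb* at 0.482. In the border zone the same division left *Ckm* at 1.13 and *Ckmt2* at 1.13. In the left ventricle, where the sums were 55072 and 57003, *Ckb* was at 1.62, *Ak1* at 1.28, and *Ckm* at 1.24. The markers themselves differed in direction there. Their TKO over WT ratios were above 1 for 8 and below 1 for 4, from 0.666 to 1.27 with a median of 1.13. TKO over WT, the markers ranged from 1.03 to 3.41 in the infarct zone and from 0.317 to 1.38 in the border zone. Infarct zone over left ventricle, they ranged from 0.120 to 3.40 in WT and from 0.370 to 2.98 in TKO. Values on this scale therefore depend on how the markers are combined. Per cardiomyocyte marker, the WT infarct zone kept 0.801 of left ventricular *Ckm* and 0.795 of *Ckmt2*, and *Ckb* stood at 7.47 times its left ventricular value. The TKO infarct zone was at 0.708 for *Ckm*, below the WT value, at 0.876 for *Ckmt2*, and at 2.22 for *Ckb*. The divisor holds no skeletal muscle markers, whose sum was 152 TMM CPM in the WT and 2.85 in the TKO infarct zone. The part of these fibers in the *Ckm* values was not tested.

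The balance of the cytosolic creatine kinases is a measure that does not depend on scaling between libraries, and it shifted toward the brain form in both infarct zones. *Ckb* had 0.0326 counts per *Ckm* count in the WT left ventricle, 0.304 in infarct, 0.0572 in border, and 0.0521 in remote tissue. In TKO hearts the values were 0.0425, 0.133, 0.0388, and 0.0387. Both infarct zones were above every other library, and outside them the WT and TKO values overlapped. Relative to the left ventricle, the infarct zone value was 9.33 (8.68 to 10.02) times as high in WT and 3.13 (2.94 to 3.336) times as high in TKO. TKO over WT, it was 0.438 (0.414 to 0.464) in infarct, 0.680 (0.631 to 0.732) in border, and 0.742 (0.689 to 0.799) in remote tissue, and 1.31 (1.21 to 1.41) in the left ventricle. As a share of both cytosolic transcripts per kilobase, *Ckb* made up 5.72% in the WT left ventricle and 36.1% in the WT infarct zone, and 7.34% and 19.9% in TKO. These shares rest on the annotated *Ckm* transcript length, which may be too long. Per kilobase of coding sequence they were 3.15% and 23.3% in WT and 4.08% and 11.7% in TKO. The 4 smooth muscle markers, of a cell type that uses *Ckb*, summed to 615 TMM CPM in the WT and 361 in the TKO infarct zone, against 129 to 169 elsewhere. The fibroblast, leukocyte, cardiomyocyte, and skeletal muscle sums given above differed between the same libraries, and the part of these cells in this balance was not tested.

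**Figure D4:**
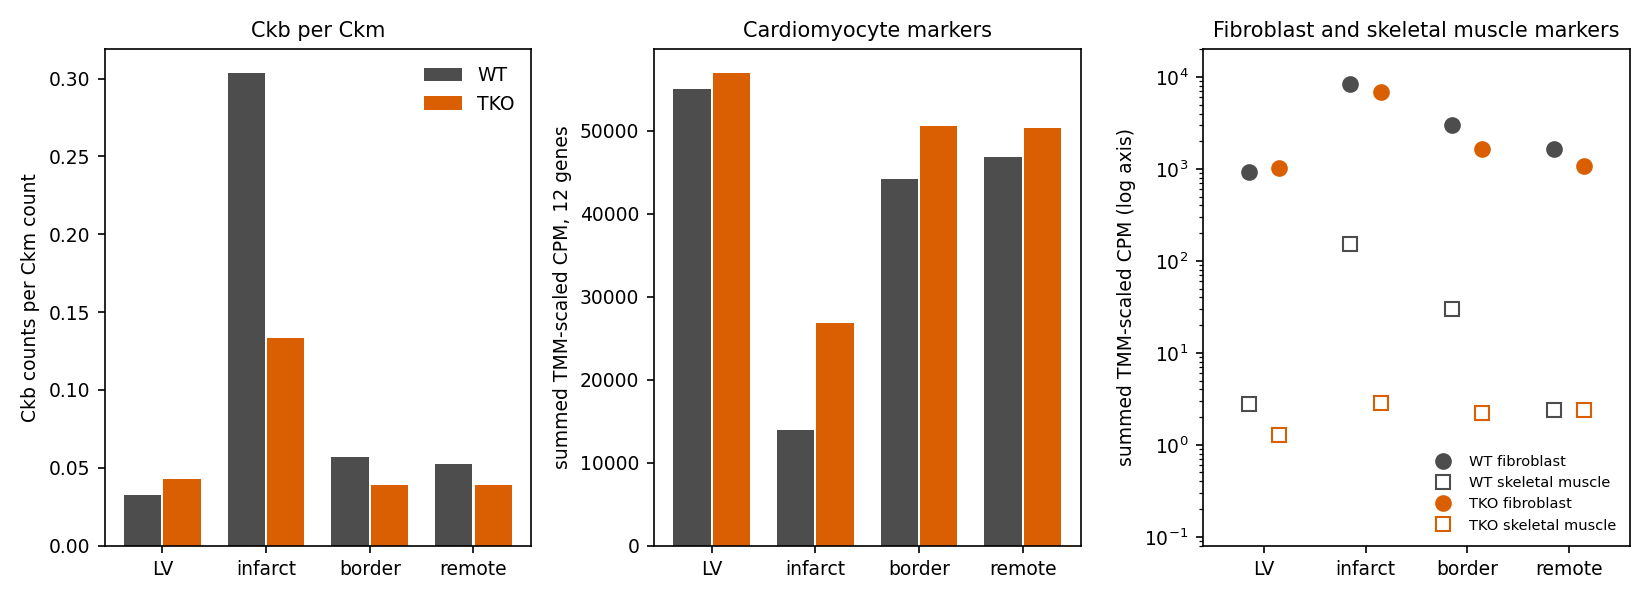
Left, counts of *Ckb* per count of *Ckm* in each library. Middle, summed level of the 12 cardiomyocyte markers. Right, on a log axis, summed levels of the 8 fibroblast markers (filled circles) and the 7 skeletal muscle markers (open squares). WT is gray, TKO is orange, and each bar or point is 1 library. The WT infarct zone has the highest *Ckb* per *Ckm*, 0.304, the lowest cardiomyocyte sum, and a skeletal muscle sum of 152.

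In WT hearts the ratio of the mitochondrial to the muscle cytosolic enzyme was alike in left ventricle and infarct zone within counting error. *Ckmt2* had 1.46 counts per *Ckm* count in the WT left ventricle and 1.45 in the WT infarct zone, a change of 0.992 (0.965 to 1.02) whose interval holds 1. In TKO hearts it was 1.29 in the left ventricle and 1.60 in the infarct zone, a change of 1.24 (1.21 to 1.27). The TKO remote zone (1.23, 1.21 to 1.26) and border zone (1.17, 1.15 to 1.20) differed from the same left ventricle library by similar amounts. The WT remote zone was at 1.14 (1.12 to 1.16) of its own left ventricle, and the WT border zone at 1.05 (1.02 to 1.07). Skeletal muscle markers summed to 152 TMM CPM in the WT and 2.85 in the TKO infarct zone. The part of these fibers in the *Ckm* counts was not tested. Against *Vdac1*, the pore of the outer membrane, *Ckmt2* was lower in the infarct zone, more so in WT. It had 1.90 counts per *Vdac1* count in the left ventricle and 1.27 in the infarct zone, a change of 0.669 (0.650 to 0.688). In TKO the values were 1.95 and 1.81, a change of 0.927 (0.905 to 0.9496). Creatine transporter counts per *Ckm* count were higher in the infarct zone, going from 0.164 to 0.431 in WT and from 0.125 to 0.279 in TKO.

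Among the channels, the share of *Vdac1* was lower and that of *Vdac2* higher in the infarct zone of both genotypes. The *Vdac1* share of VDAC transcripts per kilobase was 52.8% in the WT left ventricle and 45.0% in the WT infarct zone, and 51.6% and 48.1% in TKO. *Vdac2* per *Vdac1* count changed by 1.42 (1.37 to 1.47) times in WT and 1.21 (1.17 to 1.25) in TKO, and *Vdac3* per *Vdac1* by 1.31 (1.26 to 1.37) and 1.08 (1.04 to 1.12). *Ak1* supplied 71.3% of the transcripts of *Ak1* to *Ak6* per kilobase in the WT left ventricle and 57.9% in the WT infarct zone. In TKO the shares were 76.9% and 66.0%. *Ak3*, the mitochondrial matrix GTP-AMP phosphotransferase, had shares of 13.2% and 21.9% in WT.

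The other genes of phosphate transfer numbered 27 on the list, of which 21 were abundant enough to test. In the infarct zone against the left ventricle 14 were called lower and 4 higher by edgeR, where 28.6% of all genes were called lower and 28.2% higher. The adenine nucleotide translocase *Slc25a4*, which exchanges ATP and ADP across the inner membrane, was lower (-1.74 ± 0.30 on the log2 scale, adjusted p = 0.00351), as were the phosphate carrier *Slc25a3* (-1.52 ± 0.23, adjusted p = 0.00226) and hexokinase 2, *Hk2* (-1.36 ± 0.20, adjusted p = 0.00220). The 4 called higher were *Gatm*, which catalyzes the first step of creatine synthesis (1.37 ± 0.29, adjusted p = 0.00817), the AMP deaminase *Ampd2* (1.31 ± 0.16, adjusted p = 0.00146), the outer mitochondrial membrane protein *Tspo* (1.08 ± 0.20, adjusted p = 0.00464), and the adenylate kinase *Ak5* (adjusted p = 0.00394). *Ak5* had 2 and 4 counts in the WT and TKO left ventricle and 162 and 119 in the infarct zones. *Ampd1*, the AMP deaminase of skeletal muscle, had 52 counts in WT infarct and 9 in WT border tissue, and at most 3 in the others. *Gamt*, which completes creatine synthesis, was not called (0.29 ± 0.29, adjusted p = 0.411). By genotype across regions 0 of the 21 were called by edgeR, and 3 had an unadjusted p under 0.05, against 16.2% of all genes. DESeq2 called 1, *Nme3*, against 2.63% of all genes. In TKO infarct tissue the level relative to WT was 1.98 (1.96 to 2.01) for *Slc25a4*, 1.80 (1.72 to 1.88) for *Hk2*, and 1.77 (1.74 to 1.80) for *Slc25a3*. In the left ventricle *Gamt* was at 1.84 (1.43 to 2.37), beside *Ckb* at 1.68. Over the 21 genes the infarct zone ratio had a median of 1.21. *Ckmt1*, the ubiquitous mitochondrial creatine kinase, had 16 to 64 counts per library and made up at most 0.162% of creatine kinase transcripts per kilobase.

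The genes whose profiles over the 8 libraries lay nearest to each member were found by the root mean square distance, in log2 TMM CPM, between centered profiles. Nearest to *Ckm* were *Rxrg* (0.0478), *Mtfp1* (0.0553), and *Tnni3* (0.0575), and to *Ckmt2* *Tnni3k* (0.0363), *Fndc5* (0.0451), and *Dhrs7c* (0.0635). *Tnni3* encodes cardiac troponin I. *Ckb* had no neighbor as close, with *Pigh* (0.0789), *Rnd3* (0.0961), and *Cenpo* (0.105). The profile of *Slc6a8* was nearest to *Slc35f5* (0.0372), *Ipo7* (0.0570), and *Ube2g1* (0.0572), that of *Ak1* to *Mrps36* (0.0343), *Bzw2* (0.0403), and *Bves* (0.0503), and that of *Vdac1* to *Hint2* (0.0337), *Bsg* (0.0415), and *Mrps35* (0.0437). *Vdac2* lay nearest to *Pgm5* (0.0275), *Cdh2* (0.0402), and *Plaat3* (0.0428), and *Vdac3* to *Fkbp3* (0.0238), *Mrpl46* (0.0286), and *Atg10* (0.0332). Among the members, *Ak1* and *Vdac1* were the closest pair, at 0.0849, with *Vdac2* and *Vdac3* at 0.0901 and *Ckm* and *Ckmt2* at 0.105. *Ckb* was farthest from *Ckm* and *Ckmt2*, at 1.04 from each. These distances are a description over 8 libraries that share the same scaling.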

How the data were processed

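The data are RNA-seq of 8 libraries, with 1 for each region of each genotype, and samples were grouped by the genotype and tissue in their labels. The authors trimmed reads with Trim Galore 0.6.5, quantified transcripts of the mm10 build with kallisto 0.46, and used tximport for gene sums. The authors deposited estimated counts per gene as whole numbers, not normalized, and totals lay between 27429240 and 33799249 per library. Kallisto divides reads shared by similar transcripts, so values of genes with close copies carry that uncertainty, and the kit's handling of strand is not given in the sources used here.

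A mean CPM of 1 or more kept 12999 of 16994 genes, which were scaled by TMM and tested with edgeR 4.0.16 in R 4.3.3 by its quasi-likelihood test, with Benjamini-Hochberg adjustment over all of them and a threshold of 0.05. DESeq2 1.42.0 served as an alternative. The genotype test had the 4 regions as blocks, zone tests had genotype as a covariate, and departure tests were interactions of genotype and region. The departure of the left ventricle was added after values were seen, as was the division by coding length. The tests across genes were checked on simulated data. Ratios of a pair of libraries carry exact Clopper-Pearson 95% intervals, and ratios of ratios carry Wald intervals on log counts. Genes at least 1.5-fold apart were counted after a prior count of 2, and markers with more than 3 counts were taken as detected. Alternatives were other scalings, filters, prior counts, transcript lengths, and leaving out libraries or regions. Genes named are the 8 members, *Tigar*, a list of 27 other genes of the pathway, marker genes, and the 3 genes nearest to each member. The members and lists were chosen with earlier results of these data known. Gene positions came from the GENCODE annotation of GRCm38 and start sites from RefSeq. Ratios were computed in Python 3.11.15 (numpy 2.4.6, pandas 2.3.3) and plotted by matplotlib 3.10.9.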

Additional observations from a re-analysis of the deposited data

Results flagged for a closer look

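*Ckb* and *Slc6a8* had TKO over WT ratios on opposite sides of 1 in different regions, each beyond counting error. For *Ckb* the ratio was 1.68 in the left ventricle, against 0.926 in infarct, 0.881 in border, and 0.834 in remote tissue. The departure of its left ventricle, tested only after that ratio had been seen, had an adjusted p of 0.0618 with edgeR and 0.0155 with DESeq2. That departure test called 0.646% of all genes with edgeR and 2.15% with DESeq2. *Slc6a8* was at 1.37 in infarct, 0.933 in border, and 0.945 in remote tissue. The departure of its infarct zone was 0.52 ± 0.15 on the log2 scale (adjusted p = 0.439 with edgeR), and without the left ventricle libraries the adjusted p was 0.0246. Each ratio compares 1 library with 1 library.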

How the results depend on the processing

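Another scaling by DESeq2 size factors, the mitochondrial DNA-encoded genes left out, or a prior count of 2 moved none of the 80 member ratios beyond its counting interval, TMM over only the compared libraries moved 6, and library totals moved 58. With library totals *Slc6a8* in the TKO infarct zone turned to 1.08 of the left ventricle, its zone test to 0.0235 on the log2 scale, and 2 members in place of 1 stood above the TKO left ventricle there. With the mitochondrial DNA-encoded genes left out, 0 members in place of 1 stood above it in the TKO border zone. Members called for the infarct zone departure were 0, but 2 with DESeq2 and 0 to 5 on leaving out a region, the 5 without the left ventricle. For the left ventricle departure they were 0, but 1 (*Ckb*) with DESeq2, with library totals, or with at least 10 counts in every library, and 0 to 1 on leaving out a region, the 1 without the infarct zone. Leaving out 1 library gave 6 to 8 members called in the infarct zone and 0 in the border and remote zones, and 0 by genotype on leaving out a region. The number of genes called ranged over all settings from 3 to 342 for genotype (18), from 4716 to 8953 for the infarct zone (7385), from 1 to 576 for the border zone (93), from 0 to 162 for the remote zone (0), from 0 to 894 for the infarct departure (1), and from 11 to 1305 for the left ventricle departure (84). All 24 isoform shares moved with the length used. The cause of these changes was not tested. Depth limited no member, and it limited *Ckmt1*, *Ak5*, and *Ampd1*.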

Other observations

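Among the other genes of phosphate transfer, *Nme3*, a nucleoside diphosphate kinase, was higher in TKO in 4 of 4 regions. Its counts in the left ventricle, infarct, border, and remote zones were 330, 401, 323, and 368 in WT and 512, 461, 508, and 517 in TKO. The TKO over WT ratio was 1.64 (1.43 to 1.89), 1.36 (1.19 to 1.56), 1.63 (1.42 to 1.88), and 1.42 (1.24 to 1.63) in that order. Across regions the log2 difference was 0.59 ± 0.08 (SE, adjusted p = 0.106 with edgeR), and DESeq2 gave an adjusted p of 0.000881. Both p-values measure the spread between regions, not between mice. *Bak1*, a pore-forming protein of the outer mitochondrial membrane, was lower in TKO in 4 of 4 regions, with ratios from 0.611 (0.539 to 0.693) in the border zone to 0.943 (0.817 to 1.09) in the left ventricle, where the interval held 1 (adjusted p = 0.224 with edgeR).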
